A study of Rattus norvegicus with 9 samples.

Results

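The genes examined here encode the actin cytoskeleton and the focal adhesions that anchor it: actins and the proteins that assemble and bundle their filaments, non-muscle myosin and its regulators, adhesion plaque proteins, LIM-domain adaptors, and kinases and transcription regulators that act on them. The set was a list of 39 gene names, and 35 of these had an array entry that carried their symbol alone, out of 14506 genes in all. Palld and Lims1 had no entry under their symbol in the probe table used here. The only entry of Myl6 carried several symbols. That of Myh9 carried its own symbol repeated, under different gene identifiers, and was left out by the same rule. These 4 were not analysed here. For each gene the entry with the highest mean over the arrays was read. Every member had a mean above log2 4.25, the 40th percentile of all genes and the level under which a gene is called dim in what follows.

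RNA was taken from rat pancreatic stellate cells, the fibroblast-like cells around the acini of the exocrine pancreas. The cells came from male Sprague Dawley rats and were purified on a Nycodenz density gradient, and the age of the animals is not given in the labels. For each array 1000000 cells were grown in a 10 cm dish, in Iscove's medium with 10% foetal bovine serum, for 72 hours. The dish was bare plastic (4 arrays) or carried collagen I (3 arrays) or Matrigel (2 arrays), a gel of basement membrane proteins. No sample was treated otherwise, and the cells on plastic served as the reference for both matrices. The labels do not say that the arrays of a surface came from separate animals or cultures, so the p-values measure the spread between these arrays, which may be technical.

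A cell pulls on its surroundings through stress fibres, bundles of actin filaments that non-muscle myosin contracts and that end in focal adhesions, where talin, vinculin and their partners couple them to integrins. Phosphorylation of the myosin light chain raises contraction, and formins lengthen filaments. Assembly of filaments uses up free actin monomers, and this releases the coactivator MRTF to the transcription factor SRF, which binds CArG boxes in the promoters of many cytoskeletal genes. Stellate cells grown on hard plastic are known to turn into myofibroblast-like cells with many stress fibres.

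On Matrigel 13 of the 35 members were lower than on plastic and 1 was higher at an adjusted p under 0.05 in limma, against 5.85% and 4.52% of all 14506 genes. All genes include dim ones, which no member is. With only the 8703 genes above the dim level tested, 936 of them were lower and 696 higher. The 13 were Rock2, Actb, Lima1, Myh10, Cnn3, Cald1, Mylk, Vcl, Parva, Fhl1, Fhl2, Csrp1 and Pdlim5, and the single higher member was Fhl3. The fitted difference was below 0 for 30 of the 35 members, against 52.7% of all genes, and the median over the members was -0.33 on the log2 scale against -0.01 over all genes. For 21 members both Matrigel arrays lay below all plastic arrays, as they did for 16.6% of all genes, and for 1 member both lay above them (13.6% of all genes). Centring each array on its own median left the count of members at 1 higher and 13 lower, while over all genes it changed 655 higher and 849 lower to 512 higher and 1036 lower. The median over the members moved to -0.20 without Matrigel replicate 2.

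On collagen I 5 members were lower than on plastic and 3 were higher, against 3.17% and 2.95% of all genes. When only the 8703 genes above the dim level were tested, 554 of them were lower and 490 higher. Rock2, Lima1, Cnn3, Fhl1 and Fhl2 were the lower ones, and Vasp, Fhl3 and Csrp2 the higher ones. The fitted differences fell on both sides of 0, with 19 of 35 negative (49.4% of all genes) and a median of -0.01 against 0.00 over all genes. For 7 members all collagen arrays lay below all plastic arrays and for 5 above them, against 9.2% and 8.04% of all genes. All 5 members that fell on collagen I also fell on Matrigel, and both contrasts are read against the same 4 plastic arrays. In total 16 members changed in at least 1 of the comparisons and 19 in none. Among the higher members on collagen I the count was 1 without collagen replicate 2, collagen replicate 3, plastic replicate 2 or plastic replicate 4, and 0 without plastic replicate 1.

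**Figure D1:**
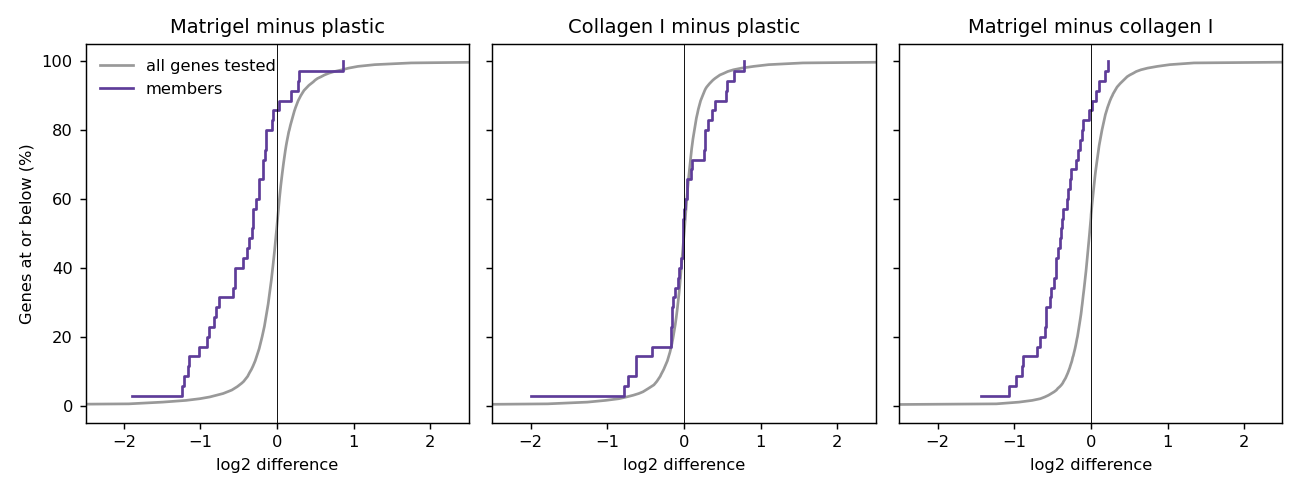
Share of genes (%, vertical axis) at or below each log2 difference (horizontal axis) for the 35 members and for all 14506 genes, in each comparison. The members lie to the left of all genes in both Matrigel panels, with medians of -0.33 and -0.39, and cross them near 0 for collagen I minus plastic.

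**Figure D2:**
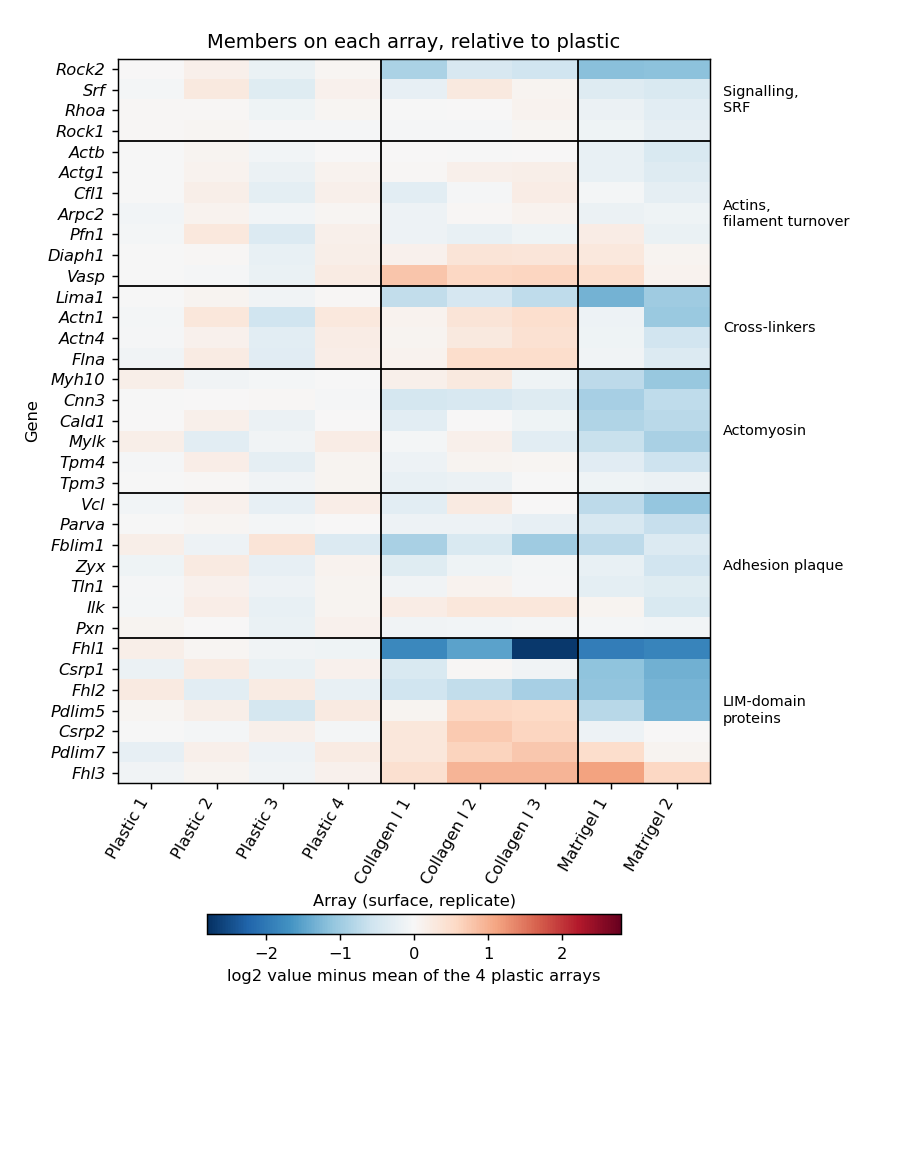
Each row is a member, grouped by role, and each column an array; the colour gives the log2 value minus the mean of the 4 plastic arrays, from blue (lower) to red (higher). Fhl1 is blue on all 5 matrix arrays, whereas Csrp1, Vcl, Cald1 and Myh10 are clearly blue on the 2 Matrigel arrays and pale on collagen I.

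Before the single genes, the cells themselves were checked by marker lists. For scale, 4.52% of all genes were higher and 5.85% lower on Matrigel, and 2.95% and 3.17% on collagen I. Of 16 stellate cell markers 14 were above the dim level on every surface, Fabp1 and Gfap being the exceptions. The mean log2 level of this list was 9.26 to 9.44 on plastic, 9.29 to 9.49 on collagen I and 8.72 to 8.87 on Matrigel, and Des, Thy1, Lum and Col3a1 fell on Matrigel. On collagen I Des fell too (-0.77, adjusted p = 0.0058) and Ncam1 rose (1.43, adjusted p = 0.0379), a call that only held without collagen replicate 1 among the 9 fits with an array left out (adjusted p 0.0513 to 0.111 in the others). The 18 macrophage markers averaged 6.44 to 7.61 on plastic, 6.42 to 7.42 on collagen I and 7.81 to 8.12 on Matrigel. Itgam and Laptm5 passed the test there, and all 18 fitted differences from plastic were positive. The 13 islet markers averaged 4.98 to 5.85, 5.25 to 5.88 and 6.38 to 7.54 in the same order, with 8 higher on Matrigel, among them Ins1 and Ins2. That count was 2 without Matrigel replicate 1 and 4 without plastic replicate 2, 3 or 4. Over the 11 adipocyte markers the means were 4.16 to 4.78, 4.16 to 4.47 and 5.30 to 5.87, with 6 higher on Matrigel, or 3 without Matrigel replicate 2. Among the 6, Fabp4 rose by 3.78 and Cd36 by 3.35. All 11 fitted differences of Matrigel from plastic were positive, while Adipoq and Lep stayed dim on all surfaces. The 2 macrophage calls became 0 without either Matrigel array or plastic replicate 2, 1 without plastic replicate 1 or 4, 5 without collagen replicate 3 and 7 without plastic replicate 3, and the 4 stellate calls on Matrigel became 2 without Matrigel replicate 1.

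In the remaining lists most genes were dim on every surface, except for the mesothelial list, where 2 of 4 were. The 16 acinar markers averaged 3.40 to 3.58 on plastic, 3.42 to 3.77 on collagen I and 3.93 to 4.68 on Matrigel, where Cpa1 and Ctrb1 were higher (7 markers without Matrigel replicate 2) and 10 were dim. The 10 duct markers averaged 3.18 to 3.29, 3.24 to 3.31 and 3.31 to 3.97, and none passed the test in limma. On Matrigel 3 were higher and 1 lower at an unadjusted p under 0.05, a level at which all genes were not counted. The 9 endothelial markers ranged from 4.42 to 4.68 over all arrays with Tie1 higher on Matrigel, the 6 Schwann cell markers from 3.49 to 3.80 with S100b higher, and the 4 mesothelial markers from 4.61 to 5.25 with Wt1 lower on both matrices. Of the marker genes named here, Des, Thy1, Fabp4, Cd36, Cpa1, Ctrb1, Tie1 and Wt1 kept their calls against plastic with any 1 array left out. Itgam, Laptm5, Lum, Col3a1, Ins1, Ins2 and S100b lost theirs without Matrigel replicate 1, among other arrays (adjusted p 0.0506 to 0.223). In such bulk RNA, fewer cells of a type and less RNA per cell cannot be told apart. Among the plastic arrays, replicate 3 had the highest macrophage mean, 7.61, and the lowest mean over the members, 9.01. On collagen I, replicate 1 had the lowest of both, 6.42 and 9.01. Collagen replicate 3 had the highest macrophage mean there, 7.42, with a member mean of 9.13. The Matrigel arrays had macrophage means of 7.81 and 8.12 and member means of 8.81 and 8.62. The part of these other cells in the members' differences was not tested.

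Of the signalling members Rock2, a kinase that promotes myosin light chain phosphorylation, changed, and the others did not pass the test. Rock2 read 9.21, 9.34, 9.02 and 9.26 on the plastic arrays, 8.32, 8.76 and 8.65 on collagen I, and 8.04 and 8.06 on Matrigel. The 3 surfaces did not overlap, and collagen I lay between the others. Rock2 was 2.23-fold lower on Matrigel than on plastic (log2 difference -1.16, SE 0.13, adjusted p = 0.00152) and 1.55-fold lower on collagen I (-0.63, SE 0.12, adjusted p = 0.0146). Its close relative Rock1 read 7.35, 7.36, 7.27 and 7.27 on plastic, 7.27, 7.27 and 7.37 on collagen I, and 7.20 and 7.06 on Matrigel. Rock1 thus sat lowest on Matrigel without passing the test (-0.18, adjusted p = 0.175).

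Rhoa, a small GTPase, stood at 11.46, 11.47, 11.31 and 11.50 on plastic, at 11.42, 11.45 and 11.54 on collagen I, and at 11.28 and 11.14 on Matrigel. The Matrigel arrays lay just below the lowest plastic array. The difference of -0.23 (SE 0.08) had an adjusted p of 0.123, and that of 0.04 on collagen I had 0.852. Srf was more variable, with 7.90, 8.21, 7.61 and 8.07 on plastic, 7.71, 8.21 and 8.03 on collagen I, and 7.59 and 7.53 on Matrigel. Both Matrigel arrays were below plastic replicate 3 by less than 0.10. The 95% interval of its difference from plastic ran from -0.80 to 0.01 on Matrigel (adjusted p = 0.224) and from -0.32 to 0.39 on collagen I (adjusted p = 0.936).

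Since SRF binds CArG boxes, these were sought by name, on both strands, in the RefSeq promoter windows of the GRCr8 assembly, which span 250 bases before to 50 after each start. Windows were matched for 32 of the 35 members, all but Actb, Actn4 and Parva. A box was present in 6 of the 32 members, or 18.8%, and in 1.77% of the 27457 genes with a window, which were not matched by level. The 6 were Srf, Actg1 and Fblim1, which changed in no comparison, and Lima1, Fhl1 and Fhl2. No box was found in the windows of Myh10, Mylk, Cald1, Vcl, Pdlim5 and Csrp1, which fell against plastic on Matrigel only. The window of Vcl opens with cttataagg, which lacks only the first base of a box, and the base before it was not read. Of the 5 members that fell on both matrices, Lima1, Fhl1 and Fhl2 held a box, while none was found in the windows of Cnn3 and Rock2. Fhl1 had a second window without one, and Fhl2 a second window that also held one. The windows of these 3 genes and of Srf are shown because they place the boxes relative to the starts, at position 251 of each sequence; capitals mark the boxes. They lie at chrX:139638246-139638545 (plus strand) for Fhl1, chr9:52923277-52923576 (minus strand) for the first window of Fhl2, chr7:132880294-132880593 (minus strand) for Lima1 and chr9:21923826-21924125 (plus strand) for Srf.
Fhl1: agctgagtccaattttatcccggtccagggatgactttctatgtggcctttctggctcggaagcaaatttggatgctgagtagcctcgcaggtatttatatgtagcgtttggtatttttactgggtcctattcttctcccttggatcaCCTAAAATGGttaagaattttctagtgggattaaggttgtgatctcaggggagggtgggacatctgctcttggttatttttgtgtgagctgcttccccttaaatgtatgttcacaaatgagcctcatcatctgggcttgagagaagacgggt
Fhl2: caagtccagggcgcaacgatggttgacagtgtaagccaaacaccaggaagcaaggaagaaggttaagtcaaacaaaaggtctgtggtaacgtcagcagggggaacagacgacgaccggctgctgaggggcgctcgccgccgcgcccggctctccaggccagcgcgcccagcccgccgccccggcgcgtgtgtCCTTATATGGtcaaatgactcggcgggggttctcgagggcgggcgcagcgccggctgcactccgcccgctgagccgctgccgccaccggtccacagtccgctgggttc
Lima1: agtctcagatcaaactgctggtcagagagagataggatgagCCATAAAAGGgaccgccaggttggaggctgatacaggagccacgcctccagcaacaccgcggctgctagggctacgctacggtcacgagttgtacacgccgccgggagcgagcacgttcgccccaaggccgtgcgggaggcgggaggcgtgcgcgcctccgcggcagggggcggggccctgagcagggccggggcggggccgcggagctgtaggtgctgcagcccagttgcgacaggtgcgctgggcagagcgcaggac
Srf: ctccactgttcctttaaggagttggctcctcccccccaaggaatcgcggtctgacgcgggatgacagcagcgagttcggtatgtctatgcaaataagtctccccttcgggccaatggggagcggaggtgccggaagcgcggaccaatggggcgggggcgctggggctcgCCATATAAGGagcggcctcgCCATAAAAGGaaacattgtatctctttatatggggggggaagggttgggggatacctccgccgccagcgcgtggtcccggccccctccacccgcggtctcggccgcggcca
Counted from the start, the box of Fhl1 began at base -102, that of Fhl2 at base -58 (and at base -95 in its second window) and that of Lima1 at base -209, while Srf itself carried 2 boxes, beginning at bases -81 and -61. Those of Actg1 and Fblim1 began at bases -90 and -60. A box in these windows is a match of letters, and binding was not measured. Bases outside the windows were not searched.

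Among the actins and the proteins that turn filaments over, 1 of 7 fell on Matrigel and 1 of 7 rose on collagen I, against 5.85% and 2.95% of all genes. In groups this small, a count of 1 says little about the group. Actb, the beta-actin of the cell cortex and stress fibres, read 12.95, 13.02, 12.87 and 12.97 on plastic, 12.97, 12.94 and 12.97 on collagen I, and 12.75 and 12.53 on Matrigel. Plastic and collagen I were level, and both Matrigel arrays lay below them. The fall on Matrigel was small, 1.24-fold (-0.31, SE 0.08, adjusted p = 0.0442), and Actb sat near the top of the array's range, whose highest values were 13.72 to 13.83. Leaving out any 1 of the 3 collagen arrays, plastic replicate 1, 2 or 4, or the second Matrigel array ended the call (adjusted p 0.0623 to 0.212), and the difference was -0.20 without Matrigel replicate 2 and after a further quantile normalization.

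The gamma-actin gene Actg1 showed 13.37, 13.47, 13.21 and 13.47 on plastic, 13.41, 13.52 and 13.55 on collagen I, and 13.17 and 13.02 on Matrigel. Its Matrigel arrays were again the lowest, with a difference from plastic of -0.28 (SE 0.10, adjusted p = 0.109) that passed the threshold without plastic replicate 3 (adjusted p = 0.0432). Vasp, which promotes filament elongation at adhesions and at the leading edge, went the other way on collagen I. It read 7.51, 7.50, 7.33 and 7.75 on plastic against 8.29, 8.11 and 8.13 on collagen I, and 7.99 and 7.61 on Matrigel. All collagen arrays were above all plastic arrays, whereas the Matrigel arrays overlapped plastic. The rise on collagen I was 1.57-fold (0.65, SE 0.12, adjusted p = 0.016), and it missed the threshold without collagen replicate 1 or plastic replicate 1 (adjusted p 0.0543 to 0.0635). The difference on Matrigel was 0.28 (adjusted p = 0.266).

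Cfl1 and Pfn1, which sever filaments and feed them with monomers, and Arpc2, a subunit of the branching complex Arp2/3, differed from plastic by -0.16, 0.02 and -0.15 on Matrigel. Their differences on collagen I were -0.04, -0.16 and -0.01. The formin Diaph1 differed by 0.18 on Matrigel (adjusted p = 0.437) and by 0.28 on collagen I (adjusted p = 0.193). None of these 4 passed the test in either comparison with plastic, and their arrays overlapped between surfaces except for Arpc2, where both Matrigel arrays lay below plastic.

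The cross-linkers held 1 changed gene of 4, where 5.85% of all genes were lower on Matrigel and 3.17% on collagen I. It was Lima1, whose product EPLIN bundles and stabilises actin filaments. Lima1 read 9.35, 9.45, 9.26 and 9.40 on plastic, 8.67, 8.89 and 8.65 on collagen I, and 8.05 and 8.38 on Matrigel. Like Rock2, it stepped down from plastic to collagen I to Matrigel with no overlap. It was 2.23-fold lower on Matrigel (-1.15, SE 0.11, adjusted p = 0.000861) and 1.55-fold lower on collagen I (-0.63, SE 0.10, adjusted p = 0.00716). The alpha-actinin genes Actn1 and Actn4 and the filamin gene Flna differed on Matrigel by -0.58, -0.33 and -0.23 and on collagen I by 0.31, 0.26 and 0.36, and their lowest adjusted p was 0.267. Among the cross-linkers Actn1 had wide spreads between arrays of 1 surface, from 9.10 to 9.99 on plastic and between 9.53 and 8.63 on Matrigel.

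The actomyosin members gave 4 of 6 lower on Matrigel and 1 of 6 lower on collagen I, against 5.85% and 3.17% of all genes. Myh10, the heavy chain of non-muscle myosin IIB, read 9.09, 8.82, 8.88 and 8.91 on plastic, 9.06, 9.19 and 8.80 on collagen I, and 8.20 and 7.87 on Matrigel. Collagen I overlapped plastic, and Matrigel lay well below both. Its fall on Matrigel was 1.85-fold (-0.89, SE 0.14, adjusted p = 0.00502), against a difference of 0.09 on collagen I (adjusted p = 0.762). Cald1 encodes caldesmon, an inhibitor of the actin-activated ATPase of myosin, and read 9.86, 10.00, 9.68 and 9.86 on plastic, 9.56, 9.85 and 9.73 on collagen I, and 9.0 and 9.10 on Matrigel. It was 1.74-fold lower on Matrigel (-0.80, SE 0.11, adjusted p = 0.00317), with -0.14 on collagen I (adjusted p = 0.514).

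Cnn3, calponin 3, had the tightest plastic values of these genes at 9.80, 9.81, 9.83 and 9.77. They were followed by 9.32, 9.36 and 9.44 on collagen I and by 8.87 and 9.09 on Matrigel. The surfaces were fully separated, with falls of 1.77-fold on Matrigel (-0.82, SE 0.08, adjusted p = 0.000769) and 1.34-fold on collagen I (-0.42, SE 0.07, adjusted p = 0.0082). Mylk, the kinase that switches on myosin by phosphorylating its light chain, read 6.19, 5.73, 5.92 and 6.23 on plastic, 5.96, 6.17 and 5.72 on collagen I, and 5.39 and 5.12 on Matrigel. It was 1.70-fold lower on Matrigel (-0.76, SE 0.17, adjusted p = 0.0263), but leaving out either Matrigel array, or plastic replicate 1 or 4, ended the call (adjusted p 0.0618 to 0.145). The tropomyosins Tpm3 and Tpm4, which coat filaments, differed on Matrigel by -0.14 (adjusted p = 0.346) and -0.45 (adjusted p = 0.0712). Tpm4 passed the threshold without plastic replicate 3 (adjusted p = 0.0284).

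**Figure D3:**
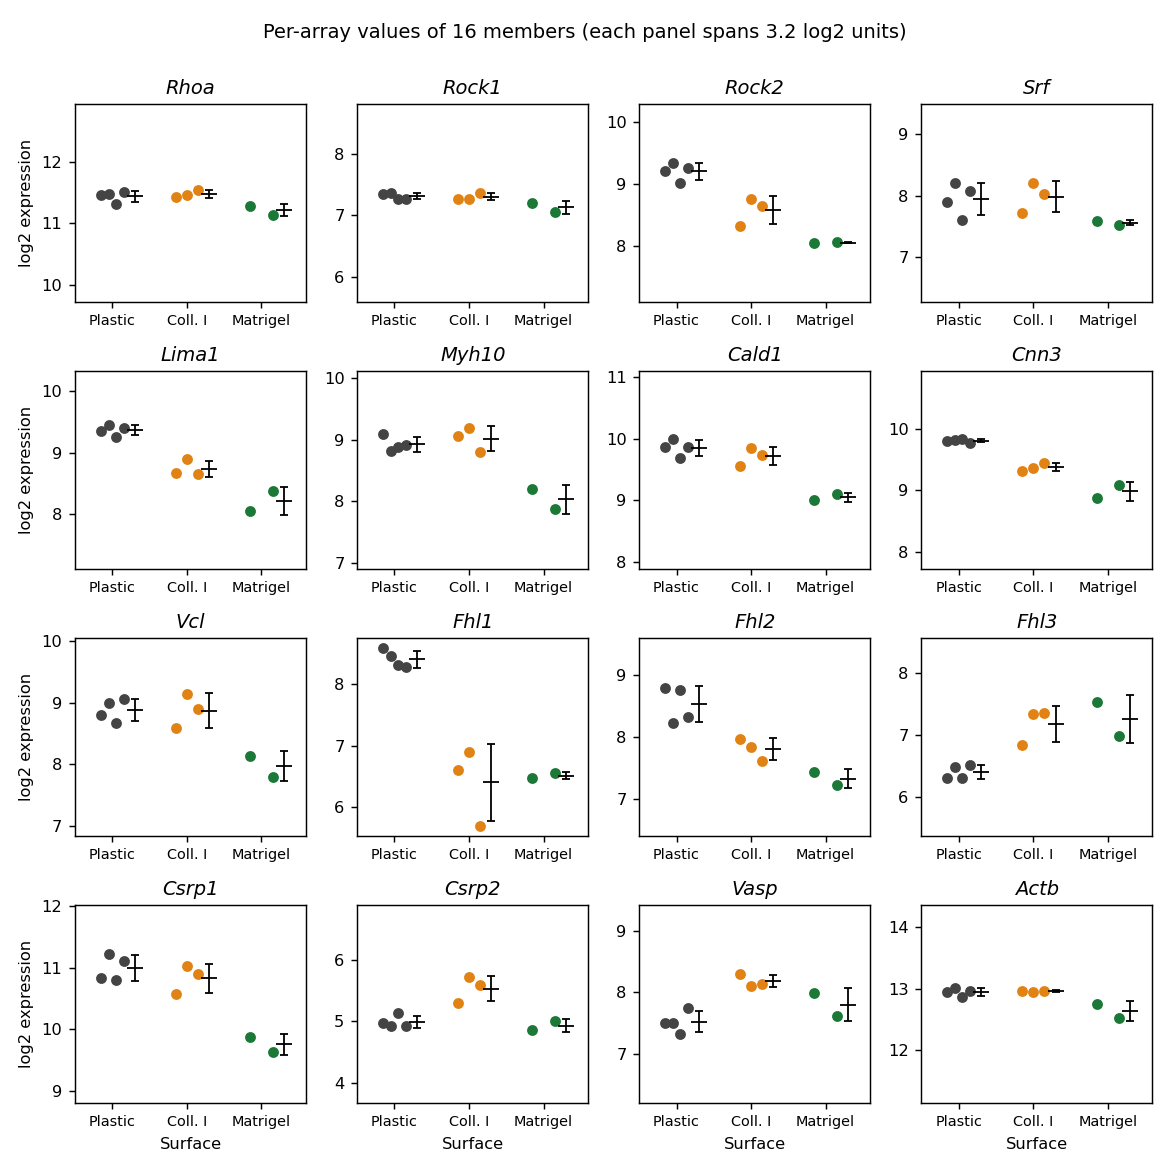
Log2 expression (vertical axis, 3.2 units in every panel) of 16 members on each array by surface; points are arrays, and the horizontal mark with whiskers is the mean and SD of the 4 plastic, 3 collagen I or 2 Matrigel arrays. Rock2, Lima1 and Cnn3 step down over the surfaces without overlap, Myh10, Cald1, Vcl and Csrp1 lie lowest on Matrigel, and Fhl3 lies higher on both matrices.

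At the adhesion plaque 2 of 7 members fell on Matrigel, against 5.85% of all genes, and none passed the test on collagen I in limma. On collagen I 2 were lower at an unadjusted p under 0.05, a level at which all genes were not counted. Vcl, vinculin, which ties talin to actin in adhesions under load, read 8.80, 9.0, 8.66 and 9.06 on plastic, 8.58, 9.14 and 8.89 on collagen I, and 8.14 and 7.80 on Matrigel. Plastic and collagen I overlapped, and both Matrigel arrays were lower than either. The fall on Matrigel was 1.88-fold (-0.91, SE 0.17, adjusted p = 0.0135), and the adjusted p without Matrigel replicate 2 was 0.089. The difference on collagen I was -0.01 with a 95% interval from -0.36 to 0.34. Parva, alpha-parvin, which joins integrin-linked kinase to actin, read 10.03, 10.09, 10.00 and 10.06 on plastic, 9.90, 9.90 and 9.82 on collagen I, and 9.60 and 9.39 on Matrigel. The 3 surfaces did not overlap, and Parva was 1.46-fold lower on Matrigel (-0.55, SE 0.08, adjusted p = 0.00342). Its difference on collagen I was -0.17 (adjusted p = 0.203).

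Zyx, zyxin, a sensor of tension at adhesions, read 8.91, 9.28, 8.81 and 9.12 on plastic, 8.69, 8.90 and 8.98 on collagen I, and 8.83 and 8.50 on Matrigel. All surfaces overlapped, and the differences from plastic were -0.37 on Matrigel (SE 0.15, adjusted p = 0.18) and -0.17 on collagen I (adjusted p = 0.56). Tln1, talin 1, the integrin activator, differed by -0.31 on Matrigel (adjusted p = 0.0724, and 0.0384 without plastic replicate 3). Ilk and Pxn, an adhesion pseudokinase and the scaffold paxillin, differed on Matrigel by -0.18 and -0.05. Fblim1, migfilin, a partner of filamin, leaned toward lower values on collagen I: 8.41, 8.09, 8.60 and 7.87 on plastic against 7.34, 7.81 and 7.24 on collagen I, and 7.51 and 7.87 on Matrigel. The collagen arrays lay below all plastic arrays and the Matrigel arrays overlapped them. The difference on collagen I, -0.78 (SE 0.20), had an adjusted p of 0.0628. It was -0.66 with an adjusted p of 0.0493 when arrays of the same title letter were paired as a replicate block, and the adjusted p was 0.045 without plastic replicate 4.

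The 7 members grouped here as LIM-domain adaptors changed in both directions. On Matrigel 4 were lower and 1 higher, against 5.85% and 4.52% of all genes. On collagen I 2 were lower and 2 higher, against 3.17% and 2.95%. These small adaptors shuttle between the cytoskeleton and the nucleus or dock on alpha-actinin. Lima1, Zyx, Pxn and Fblim1 also carry LIM domains but were counted in the groups above. Fhl1, a four-and-a-half LIM protein of muscle, showed the widest gap of any member, with 8.58, 8.45, 8.31 and 8.28 on plastic, 6.61, 6.90 and 5.70 on collagen I, and 6.47 and 6.55 on Matrigel. Every matrix array lay more than 1 log2 unit below every plastic array, and the Matrigel arrays fell within the collagen range. Fhl1 was 3.72-fold lower on Matrigel (-1.89, SE 0.28, adjusted p = 0.00425) and 4.0-fold lower on collagen I (-2.00, SE 0.24, adjusted p = 0.00229).

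Fhl2, its relative, read 8.79, 8.23, 8.77 and 8.33 on plastic, 7.97, 7.83 and 7.61 on collagen I, and 7.43 and 7.22 on Matrigel. It descended over the 3 surfaces without overlap, by 2.31-fold on Matrigel (-1.21, SE 0.18, adjusted p = 0.00487) and by 1.66-fold on collagen I (-0.73, SE 0.16, adjusted p = 0.0332). The call on collagen I missed the threshold without any 1 of the collagen or Matrigel arrays, or without plastic replicate 1 or 3 (adjusted p 0.0507 to 0.12). Fhl3, the remaining Fhl gene of the set, moved the opposite way, from 6.30, 6.48, 6.30 and 6.51 on plastic to 6.84, 7.34 and 7.35 on collagen I and to 7.53 and 6.98 on Matrigel. All matrix arrays exceeded all plastic arrays. The rise was 1.81-fold on Matrigel (0.86, SE 0.19, adjusted p = 0.0217) and 1.72-fold on collagen I (0.78, SE 0.16, adjusted p = 0.0261). Leaving out plastic replicate 1 or the first Matrigel array ended the call on Matrigel (adjusted p 0.0605 to 0.156), and the call on collagen I was lost without collagen replicate 2 or 3 or any 1 of the 4 plastic arrays (adjusted p 0.0541 to 0.107).

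Csrp1 and Csrp2 encode cysteine- and glycine-rich LIM proteins that bind alpha-actinin. Csrp1 read 10.83, 11.23, 10.80 and 11.11 on plastic, 10.57, 11.02 and 10.90 on collagen I, and 9.87 and 9.64 on Matrigel. Collagen I overlapped plastic and Matrigel lay far below, a fall of 2.36-fold (-1.24, SE 0.16, adjusted p = 0.00275). Csrp2 read 4.97, 4.92, 5.13 and 4.92 on plastic, 5.30, 5.71 and 5.58 on collagen I, and 4.85 and 5.0 on Matrigel. It rose on collagen I by 1.46-fold (0.55, SE 0.10, adjusted p = 0.0175), with -0.06 on Matrigel (adjusted p = 0.845). The rise missed the threshold without collagen replicate 2 or 3 or plastic replicate 1, 2 or 4 (adjusted p 0.051 to 0.0681).

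The PDZ and LIM proteins Pdlim5 and Pdlim7 attach kinases to the cytoskeleton. Pdlim5 read 7.88, 7.99, 7.33 and 8.07 on plastic, 7.90, 8.39 and 8.38 on collagen I, and 7.05 and 6.54 on Matrigel. It fell 2.03-fold on Matrigel (-1.02, SE 0.24, adjusted p = 0.0299), and the collagen arrays overlapped plastic, with a difference of 0.40 (adjusted p = 0.355). The fall was lost without either Matrigel array or without plastic replicate 1, 2 or 4 (adjusted p 0.0555 to 0.177). Pdlim7 differed by 0.29 on Matrigel (adjusted p = 0.387) and by 0.56 on collagen I (adjusted p = 0.0823), where its 3 arrays lay above all plastic arrays.

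**Figure D4:**
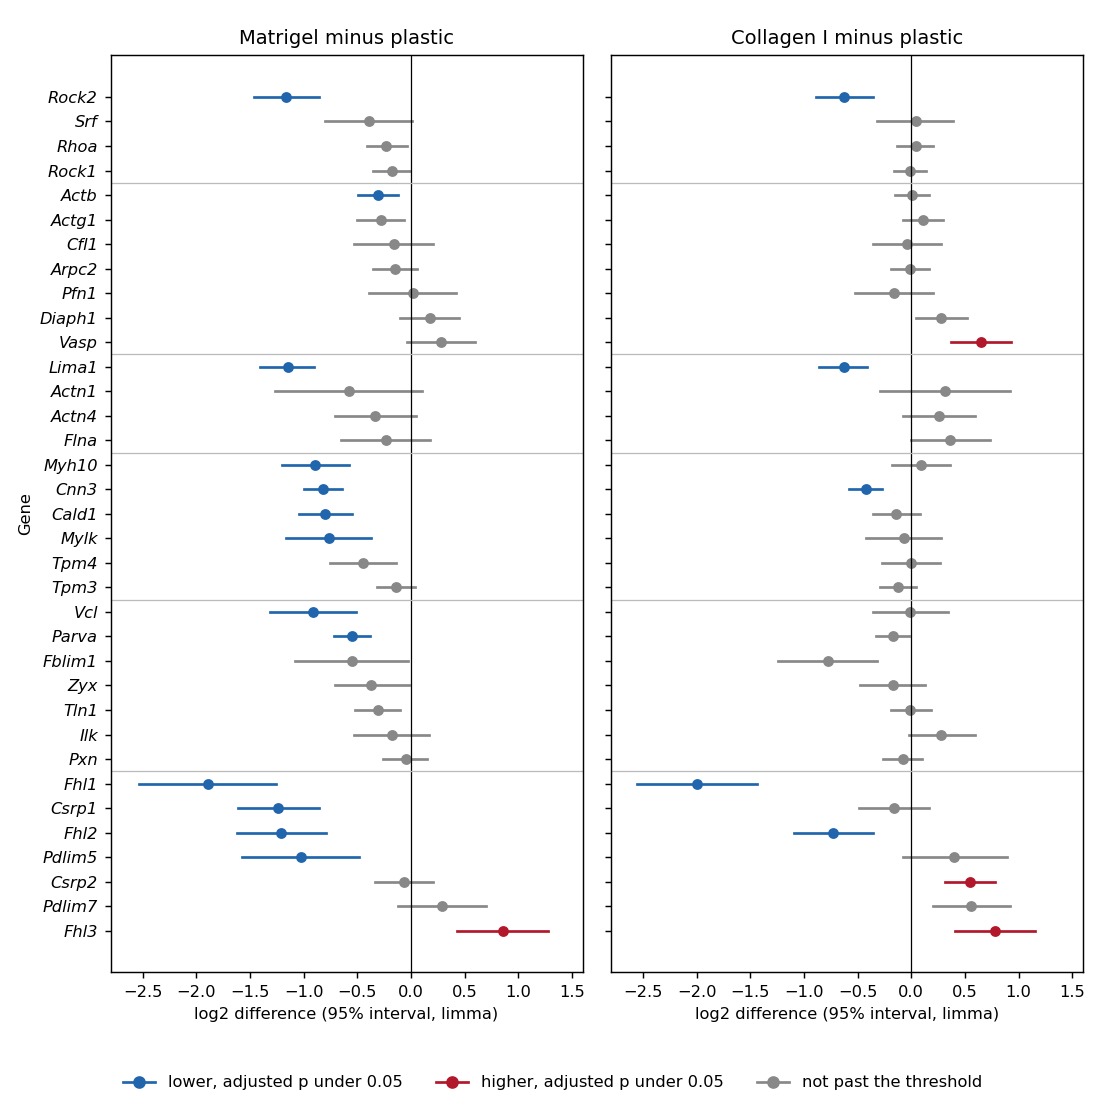
Fitted log2 difference from plastic (horizontal axis) with its 95% interval for each of the 35 members, on Matrigel (left) and collagen I (right); blue and red mark lower and higher members past an adjusted p of 0.05 in limma, grey the others. On Matrigel 13 members are blue and 1 is red, and on collagen I 5 are blue and 3 are red.

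The direct comparison of the 2 matrices used Matrigel minus collagen I from the same fit. On Matrigel 8 members were lower than on collagen I, against 1.45% of all genes, and none was higher, where 1.21% of all genes were. Among the 8703 genes above the dim level, tested alone, 271 were lower and 191 higher. At an unadjusted p under 0.05 none was higher either and 22 were lower, against 7.85% and 9.09% of all genes. The median over the members was -0.39 against -0.02 over all genes, and 30 members had a negative difference, as did 54.7% of all genes. Both Matrigel arrays lay below all collagen arrays for 24 members and above them for 0, against 16.4% and 13% of all genes. Pdlim5 had the widest gap, 2.69-fold (-1.43, SE 0.25, adjusted p = 0.0276), followed by Csrp1 at 2.10-fold (-1.07, SE 0.17, adjusted p = 0.0198) and Myh10 at 1.97-fold (-0.98, SE 0.14, adjusted p = 0.0153). Vcl was 1.86-fold lower (-0.90, adjusted p = 0.0439), Cald1 1.58-fold (-0.66, adjusted p = 0.0261) and Csrp2 1.52-fold (-0.60, adjusted p = 0.0451). Cnn3 and Parva were 1.32-fold and 1.30-fold lower (adjusted p = 0.0451 and 0.0493).

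Thus 6 of the 8 members that were lower than plastic on Matrigel but not on collagen I also differed between the matrices, namely Myh10, Cald1, Vcl, Parva, Pdlim5 and Csrp1. Both comparisons use the same 2 Matrigel arrays, so this overlap is partly built in. Actb and Mylk differed between the matrices by -0.31 (adjusted p = 0.097) and -0.70 (adjusted p = 0.0925). Of the members that fell on both matrices, Rock2 and Lima1 differed between them by -0.53 (adjusted p = 0.0919) and -0.52 (adjusted p = 0.0603), and Fhl1 by 0.11 with a 95% interval from -0.56 to 0.77. For Fhl3 the difference between matrices was 0.07, from -0.37 to 0.52. The count of 8 rests on few arrays: it was 0 without collagen replicate 2, 1 without collagen replicate 3, 2 without Matrigel replicate 1 or 2 or plastic replicate 1, 3 without plastic replicate 4, 4 without plastic replicate 2 and 5 without plastic replicate 3. With only the 5 arrays of the 2 matrices in the fit it was also 0, but there 0 of all 14506 genes were called in either direction. Calls over all genes fell in the other fits too, for instance from 211 lower and 176 higher to 44 and 24 without collagen replicate 2.

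Several members come in pairs of close relatives, which were compared within arrays. Subtracting 1 gene's value from the other's on the same array removes what the array adds to both, and 8 pairs were compared in each of the 3 comparisons by exact two-sided permutation tests. Within arrays the difference Fhl1 minus Fhl3 was lower by 2.78 log2 units on collagen I and by 2.75 on Matrigel than on plastic, with no overlap. For Rock2 minus Rock1 the shifts were -0.62 on collagen I and -0.98 on Matrigel, and for Csrp1 minus Csrp2 they were -0.71 and -1.18. Pdlim5 minus Pdlim7 shifted by -1.31 on Matrigel with no overlap and by -0.16 on collagen I, where the arrays overlapped. The exact permutation p was 0.0286 for Fhl1 minus Fhl3 and for Rock2 minus Rock1 on collagen I and 0.0667 for the non-overlapping pairs on Matrigel, which are the smallest these numbers of arrays allow. After adjustment over the 24 tests the lowest value was 0.133, and the lowest that these numbers of arrays allow is 0.0857, so no pair could pass the threshold. These pairs were chosen after the values of their genes had been seen.

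Other genes of the same pathways were read from lists of neighbours. Over all genes, 5.85% were lower and 4.52% higher on Matrigel, and 3.17% and 2.95% on collagen I. Among 27 other adhesion genes 5 were lower and 1 higher on Matrigel, and 1 was higher on collagen I. The 5 became 2 without Matrigel replicate 2 and 3 without Matrigel replicate 1, and the 1 higher on Matrigel, Enah, lost its call without any 1 of 7 arrays: collagen replicate 1, both Matrigel arrays and the 4 plastic arrays (adjusted p 0.0559 to 0.249). Without collagen replicate 3 there were 2 higher. Ablim1, an actin-binding LIM protein, fell by 1.41 on Matrigel (SE 0.20, adjusted p = 0.00348). Fermt2, kindlin-2, an integrin activator, fell by 0.69 there (adjusted p = 0.0134, and 0.0863 without Matrigel replicate 2). The LIM protein Wtip rose by 1.01 on collagen I (adjusted p = 0.00453). Of 31 other actin regulators 4 were lower on Matrigel, and 1 was lower and 1 higher on collagen I. Single calls on collagen I in lists of this size lie near the shares of all genes. The 4 became 2 without either Matrigel array or plastic replicate 1, 2 or 4, and 7 without plastic replicate 3. On collagen I the 1 lower became 0 without collagen replicate 1 or 3 or plastic replicate 1 or 3, and the 1 higher became 2 without collagen replicate 1. Myo1c, a single-headed myosin, fell by 0.79 on Matrigel (SE 0.07, adjusted p = 0.000622), and the bundler Pls3 fell by 1.01 (SE 0.15, adjusted p = 0.00462). Actr2, a subunit of Arp2/3, rose by 0.70 on collagen I (adjusted p = 0.00244). The smooth muscle contractile genes, which border on this set, gave 5 of 12 lower on Matrigel, with Tpm2 down by 2.68 (SE 0.23, adjusted p = 0.000574) and Myl9 by 1.65 (SE 0.25, adjusted p = 0.00486, and 0.0509 without Matrigel replicate 1). Without that array 2 of the 12 were lower. None of the 12 passed the test on collagen I in limma. There 2 were lower at an unadjusted p under 0.05, a level at which all genes were not counted.

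The values of the members were also compared between arrays whose titles share a letter, whose meaning the labels do not give. Each of these differences sets a single array against another, and all genes were not counted in the same way. For letter A, Matrigel lay below plastic in 28 of 35 members with a median of -0.19, and for letter S in 28 of 35 with a median of -0.25. For collagen I the medians were -0.09, -0.07 and -0.04 over the letters A, P and Z. Rock2 was lower than plastic by 1.17 and 0.96 on Matrigel and by 0.88, 0.58 and 0.61 on collagen I within these letters. Over the 9 arrays, values of all genes correlated at 0.991 to 0.996 between arrays of 1 surface and at 0.975 to 0.989 between surfaces, which is across genes and not across replicates. With 2 Matrigel arrays, the number of arrays limits the precision of every difference that involves them.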

How the data were processed

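The series holds 9 arrays of stellate cells: 4 from plastic dishes, 3 from collagen I and 2 from Matrigel. The deposited values are log2 expression values that the authors made with RMA, per the submitters' processing notes, which includes background correction, normalization between arrays and a summary per probe set; which program ran it, and on which genome build, is not given in the sources used here. Of 29215 entries 15310 carried 1 gene symbol, 323 several and 13582 none, with a repeated symbol counted as several. The brightest entry per gene was kept, leaving out 804, and a probe may cross-hybridise with a close paralog. Of the single-symbol entries, 15279 had their gene identifier in the RefSeq table, and 0 symbols changed.

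A linear model with a mean for each surface was fitted to all 9 arrays in limma 3.58.1 (R 4.3.3), leaving 6 residual degrees of freedom, with moderated variances and two-sided p-values adjusted by Benjamini-Hochberg over 14506 genes within each comparison; a call is an adjusted p under 0.05. On simulated data with 200 changed genes, 83%, 91% and 80% of changes of 1 log2 unit were recovered for Matrigel minus plastic, collagen I minus plastic and Matrigel minus collagen I, with 8, 6 and 10 false calls among 14506 genes. The members and lists were chosen with earlier results of these data known. Members called in any comparison, and Actb, Actg1, Srf, Rhoa, Vcl and Zyx whatever their values, are given in full, the others by range, and of each other list up to 4 called genes with the smallest p; the text prints a part of these.

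For collagen I and plastic, arrays with the same title letter deviated together from their group means (r = 0.196, 0.234 and 0.269 for the letters A, P and Z). Collagen A with plastic S, of unlike letters, reached 0.243. Arrays of the same letter were treated as paired in an alternative fit only, and the letters are not explained in the labels. The alternatives were re-centred arrays, a further quantile normalization, only genes above the dim level, trend and robust moderation, only the compared groups, the title letter as a fixed or random replicate block, array weights, every entry tested, each array left out in turn and, chosen after seeing the data, only the plastic arrays that share letters with the other surface. Promoter windows came from RefSeq and protein sequences were not used here. One list of neighbouring pathway genes is not reported here.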

Additional observations from a re-analysis of the deposited data

How the results depend on the processing

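No member difference that passed the test changed direction under any alternative. The collagen I median over the members, -0.01, took either sign, from -0.08 to 0.06 with an array left out and from -0.08 to 0.01 otherwise. Counts of changed members kept within 1.5 times of the reported ones except as follows. The 1 member higher on Matrigel than on plastic became 0 with only the plastic arrays of matching letters, and ranged from 0 to 1 with an array left out; the 13 lower ranged from 9 to 16. The median over the members for that comparison, -0.33, was -0.20 with the title letter as a fixed replicate block and -0.20 with the matching plastic arrays, and lay between -0.43 and -0.20 with an array left out. On collagen I the 3 higher members ranged from 0 to 3 and the 5 lower from 4 to 6 with an array left out. Of the 8 members lower on Matrigel than on collagen I, the count was 2 with the fixed replicate block, 4 with array weights, 4 with every entry tested and 0 with only the compared groups, and ranged from 0 to 7 with an array left out; the median of -0.39 was -0.24 with the fixed block. Over all genes, 211 were lower on Matrigel than on collagen I in the main fit. That became 51 with the fixed block, 141 with array weights, 152 with every entry tested and 0 with only the compared groups. The cause of these shifts was not tested, beyond the smaller number of arrays in the fits that leave arrays out. Whether shared letters pair Matrigel with plastic (r = -0.131 for A and 0.406 for S) or with collagen I (r = -0.122, with 1 shared letter) could not be decided. With 2 Matrigel arrays, their deviations from the group mean mirror each other. For Matrigel against plastic the fixed block ended the calls of Actb and Mylk. In the comparison of collagen I with plastic the block changed no call but that of Fblim1. The calls of Cald1, Cnn3, Csrp1, Fhl1, Fhl2, Lima1, Myh10, Parva and Rock2 on Matrigel and of Cnn3, Fhl1, Lima1 and Rock2 on collagen I, each against plastic, held in all 19 alternatives run.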

Other observations

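The actin gene Actg1 had 6 array entries under its symbol. Their differences from plastic were -0.24 to -0.29 on Matrigel and 0.11 to 0.13 on collagen I, and none passed an adjusted p of 0.05 with every entry tested. Rock1 and Fblim1 were the 2 members whose values were identical to the last digit on at least 2 arrays, as those of 8192 genes were.

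Other short motifs were counted in the same RefSeq promoter windows, on both strands. CATTCC, the core recognised by TEAD factors, stood in the windows of 10 of 32 members, 31.2%, against 15% of all genes with a window: Arpc2, Cald1, Fblim1, Fhl2, Flna, Myh10, Mylk, Pfn1, Vcl and Zyx. GGGCGG, the core bound by SP1, stood in those of 26 members, 81.2%, against 36% of all genes, and TATAAA in those of 4, 12.5%, against 15.3%. The shares of all genes cover every gene with a window, on the array or not, and were not matched to the members by level. CATTCC was read as letters alone, and no binding was measured.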
